A study of Saccharomyces cerevisiae with 11 samples.

Results

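The beta-1,3-glucan synthase genes of the budding yeast Saccharomyces cerevisiae were followed across 11 Affymetrix YG-S98 arrays. The genes are FKS1, GSC2 and FKS3, which encode the catalytic subunit and its relatives, RHO1, the GTPase that activates the enzyme, and SMI1, a regulator of wall synthesis. Members were all probe sets whose single gene symbol in the platform's gene table is one of these 5 names, which gave 25 of the 9335 probe sets on the array. FKS1 had 8 probe sets, FKS3 8, GSC2 7, and RHO1 and SMI1 had 1 each. The probe sets of a gene read the same transcript and are not replicates of a condition.

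The cells were fks1 mutants, named strain 5251 in the labels, given 15 mM glucosamine for 2 h (1 array) or left untreated (1 array), and the wild type BY4741 grown in 15 mM glucosamine overnight and after dilution (3 arrays, called continuous here), given 15 mM glucosamine for the last 2 h (3 arrays) or left untreated (3 arrays). The medium was YPD, which is rich and holds glucose, and overnight cultures were diluted and grown on before harvest. The labels do not say which lesion the fks1 strain carries. They number the wild-type arrays without saying whether the numbers mark separate cultures, so the p-values measure a spread between arrays that may be technical. Both fks1 arrays stand alone.

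Beta-1,3-glucan is the main load-bearing polymer of the yeast cell wall, made at the plasma membrane from UDP-glucose and pushed out to the wall as it is formed. Fks1 is the catalytic subunit used by growing cells, and Gsc2, also called Fks2, is its close homologue, which is known to be induced by calcium through calcineurin, by poor carbon sources, during mating and when Fks1 is lost. Fks3 is a more distant homologue that, like Gsc2, has a known role in building the spore wall. Rho1 bound to GTP switches the synthase on and also activates Pkc1, the first kinase of the cell integrity cascade.

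Each value is the deposited signal of a probe set, an array brightness on a linear scale that the submitters had normalised. A background limit of 25.5 was taken from 19 control probe sets (their 95th percentile), and readings under it are called not above background. The 2% trimmed mean was near 500.5 on every array, the share of probe sets above background ran from 76.6% to 81.3%, and no pair of arrays shared more than 0.636% equal signals. The median signal was less level, at 136.8 and 150.4 on the treated and untreated fks1 arrays and 123.4 to 142.3 in wild type. The mating type a genes MFA1, MFA2, STE2, BAR1 and STE6 read 414.4 or more on every array, and the alpha genes MF(ALPHA)1, MF(ALPHA)2, STE3 and SAG1 read 188.7 or less, as in haploid a cells. BY4741 carries full or partial deletions in 4 nutritional marker genes in its textbook genotype. Of these, URA3 read 6.7 or less on every array, LEU2 44.0 to 99.4 and HIS3 479.5 to 886.1. The remaining one, MET17, the gene of a sulphur-assimilation enzyme, read 7.7 and 7.6 on the 2 h and untreated fks1 arrays and 108.5 to 1248.1 on the 9 wild-type arrays, which goes against the label BY4741 for the wild type. The strains therefore differed in MET17 signal as well as in FKS1, and a strain difference outside FKS1 cannot be told apart from the effect of the mutation in any comparison of fks1 with wild type.

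The targeted gene was read first, because it checks the strain labels. FKS1 signal was at or near background in fks1 and among the bright signals in wild type. Its leading probe set, 9966_at, the one with the highest mean over the wild-type arrays, read 24.4 on the untreated fks1 array, against 7567.3, 7133.6 and 7510.1 on the untreated wild-type arrays. After 2 h of glucosamine it read 6.6 in fks1, against 8256.7, 8055.6 and 8100.9 in wild type. Both fks1 readings lay under the background percentile, so the signal was at least 290.2-fold lower in untreated fks1 and at least 319.1-fold lower in treated fks1 than in wild type of the same treatment. The fitted differences were -8.24 and -10.05 on the log2 scale (limma, Benjamini-Hochberg adjusted p = 5.24e-10 untreated and 7.46e-11 at 2 h).

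The other FKS1 probe sets also read lower in fks1, and 3 of them had a reading above background in the mutant. In treated fks1, 2837_s_at, 2838_s_at, 2839_s_at and 2841_s_at read 2.7 to 7.8, and in untreated fks1 2.2 to 5.0. Probe set 2840_s_at read 21.6 in treated fks1 and 39.7 in untreated fks1, against 4495.7 to 8068.1 on the wild-type arrays. Probe set 2835_at read 43.5 and 48.5 in treated and untreated fks1, and 2836_g_at 64.3 and 64.1. What the readings above background bind in fks1 cells was not tested. Without glucosamine, 6 FKS1 probe sets were called lower by limma, where 0.174% of all tested probe sets were called lower, and 7 lay at least 2-fold under each of the 3 wild-type arrays, where 0.859% did. After 2 h, the same counts were 6, where 0.151% of all were called lower, and 8, where 1.21% lay 2-fold under each wild-type array. The exceptions by limma were 2835_at (log2 -2.25 ± 1.39 SE untreated, adjusted p = 0.562, and -3.43 ± 1.39 at 2 h, adjusted p = 0.361) and 2836_g_at (-3.99 ± 1.13, adjusted p = 0.173, and -5.02 ± 1.13, adjusted p = 0.105), whose wild-type readings were widely spread.

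**Figure D1:**
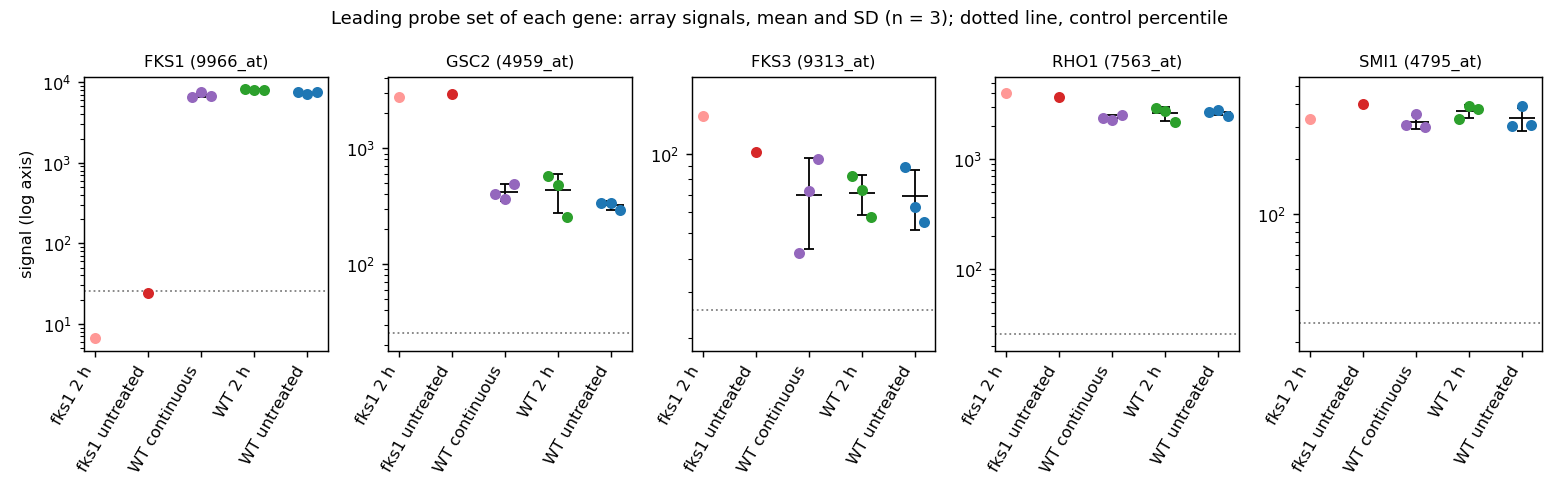
Signal (log axis) of the leading probe set of each gene on every array, with 2 h and untreated fks1 (1 array each) to the left of continuous, 2 h and untreated wild type (mean and SD, n = 3). FKS1 is under the dotted background line of 25.5 on both fks1 arrays, GSC2 reads 2748.6 and 2930.4 there against 257.5 to 579.2 in wild type, and the RHO1 points of fks1 lie above all wild-type points.

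GSC2, the gene of the second catalytic subunit, was higher in fks1 under both conditions. Its leading probe set, 4959_at, read 2930.4 on the untreated fks1 array, against 334.1, 339.6 and 290.9 on the untreated wild-type arrays. After 2 h of glucosamine it read 2748.6 in fks1, against 579.2, 480.6 and 257.5 in wild type. The lowest fks1 reading was several times the brightest of all 9 wild-type readings. The untreated difference was 9.14-fold (log2 3.19 ± 0.38 SE, limma adjusted p = 0.007) and the difference at 2 h was 6.62-fold (log2 2.73 ± 0.38, adjusted p = 0.0181). Both differences stayed called in all 18 alternative settings, with log2 values of 2.98 to 3.27 untreated and 2.38 to 2.97 at 2 h.

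The remaining GSC2 probe sets gave the same order at lower brightness. Probe set 2211_s_at read 1567.4 in untreated fks1, against 256.3, 241.0 and 195.6 in untreated wild type, and 1771.9 in treated fks1, against 393.1, 249.6 and 236.1 in treated wild type. It rose 6.83-fold untreated (log2 2.77 ± 0.39, adjusted p = 0.0164) and 6.22-fold at 2 h (log2 2.64 ± 0.39, adjusted p = 0.0237). Probe set 2210_s_at read 1785.3 in untreated fks1, against 223.1, 129.2 and 199.1 in untreated wild type, and 1944.4 in treated fks1, against 392.4, 189.6 and 166.3 in treated wild type. It rose 9.97-fold untreated (log2 3.32 ± 0.56, adjusted p = 0.0338), while the 8.41-fold difference at 2 h missed the threshold (log2 3.07 ± 0.56, adjusted p = 0.0581). For both probe sets no wild-type reading reached the fks1 readings.

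The dimmer GSC2 probe sets also read higher in fks1, with wider errors, and none of them was called. Probe set 2209_s_at read 506.2 in untreated fks1, against 35.7, 39.9 and 52.2 in untreated wild type (log2 3.59 ± 0.81, limma adjusted p = 0.109), and 668.1 in treated fks1, against 130.9, 50.4 and 48.6 in treated wild type (log2 3.29 ± 0.81, adjusted p = 0.133). In untreated fks1, 2207_s_at read 257.2, against 61.3, 5.3 and 27.8 in untreated wild type, and 2208_s_at read 154.4, against 41.6, 11.4 and 4.9. For both, the untreated wild-type readings lay on both sides of the background limit. Their untreated log2 differences were 3.45 ± 1.12 and 3.33 ± 1.05. At 2 h their log2 differences were 3.19 ± 1.12 and 2.81 ± 1.05, and over both treatments their adjusted p ran from 0.227 to 0.321. Probe set 2206_g_at was not above background on any wild-type array and was not tested. It read 68.6 in untreated fks1 and 101.7 in treated fks1, at least 2.69-fold and at least 3.99-fold higher than wild type. By limma, 3 of the 6 tested GSC2 probe sets were called higher in untreated fks1, where 0.418% of all probe sets were, and 2 of 6 at 2 h, where 0.279% were. By the plain rule, all 6 tested GSC2 probe sets lay at least 2-fold above each wild-type array of the same treatment in both conditions. Of all tested probe sets, 2.76% did so untreated and 2.62% at 2 h. The untested 2206_g_at also lay past 2-fold in both conditions.

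FKS1 and GSC2 are close homologues, and 15 of the 25 member probe sets have identifiers ending in _s_at, which marks sets that can bind transcripts of more than 1 gene. On the fks1 arrays, where the leading GSC2 probe set read 2748.6 and 2930.4, no FKS1 probe set read above 64.3. The reverse, how much of the GSC2 signal in wild type comes from the abundant FKS1 transcript, cannot be told apart on these arrays. The leading probe sets of the genes, 9966_at and 4959_at, do not carry the mark.

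**Figure D2:**
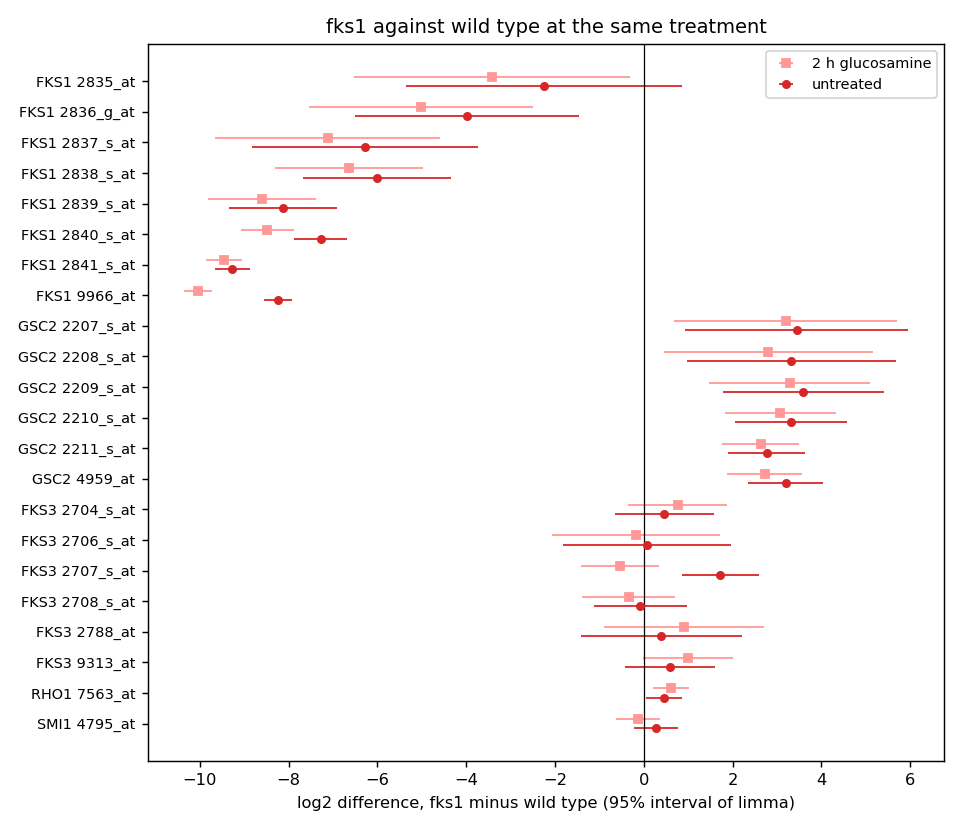
Log2 difference, fks1 minus wild type at the same treatment, for the 22 tested member probe sets, with limma's 95% interval; light squares are 2 h of glucosamine and dark circles untreated. FKS1 lies far to the left, GSC2 near 3, and the FKS3, RHO1 and SMI1 values lie between -0.54 and 1.73, none of them called.

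FKS3, the third gene of the family, was dim. Its leading probe set, 9313_at, was the only 1 of its 8 that read above background on all 9 wild-type arrays. It read 101.9 on the untreated fks1 array, against 88.8, 62.8 and 55.1 in untreated wild type. After 2 h it read 139.7 in fks1, against 82.2, 72.8 and 57.5 in wild type. Both fks1 readings lay above every wild-type reading, and neither difference passed the test (log2 0.59 ± 0.46, limma adjusted p = 0.659 untreated, and 1.00 ± 0.46, adjusted p = 0.427 at 2 h). Of the other FKS3 probe sets, 2707_s_at read 28.7 in untreated fks1, against 3.2, 6.6 and 11 in untreated wild type, which is at least 1.13-fold higher since no wild-type reading was above background (adjusted p = 0.11). It read 12 in treated fks1, against 14.1, 19.2 and 19.5 in treated wild type, so the order was not kept. The other 6 read 0.6 to 45.3 over all 11 arrays.

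RHO1, the GTPase gene, read higher in fks1 by a small margin. Its probe set, 7563_at, read 3680.3 on the untreated fks1 array, against 2703.6, 2845.6 and 2516.1 in untreated wild type. After 2 h it read 4027.4 in fks1, against 2960.1, 2768.6 and 2196.9 in wild type. The differences were 1.37-fold untreated (log2 0.45 ± 0.18, 95% interval 0.05 to 0.86, limma adjusted p = 0.339) and 1.54-fold at 2 h (log2 0.62 ± 0.18, 0.21 to 1.03, adjusted p = 0.21), and neither passed the test. Under 18 alternative settings the log2 values ran from 0.25 to 0.59 untreated and 0.49 to 0.71 at 2 h, with no call. Readings of both fks1 arrays above every wild-type array were found for 1 RHO1, 1 FKS3 and 6 GSC2 probe sets among the 22 tested members, and for 11.7% of all tested probe sets. SMI1 showed no such order. Its probe set, 4795_at, read 398.9 in untreated fks1, against 302.5, 387.8 and 306.7 in untreated wild type, and 331.2 in treated fks1, against 329.5, 390.5 and 372.3 in treated wild type (log2 0.27 ± 0.22, adjusted p = 0.682, and -0.13 ± 0.22, adjusted p = 0.859).

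In wild type, glucosamine was not followed by a called difference in any of the 22 tested member probe sets. At 2 h against untreated, 0 members were called by limma and 1 had an unadjusted p under 0.05, with 0.0348% of all probe sets called. For continuous growth against untreated the counts were 0 and 0, with 1.44% of all called, and for continuous growth against 2 h they were 0 and 4, with 0.058% of all called. The first 2 of these comparisons share the untreated arrays. The leading FKS1 probe set read 6591.4, 7484.0 and 6823.4 on the continuous arrays, below the 2 h readings of 8055.6 or more given above. Its group means were 6966 ± 463 in continuous, 8138 ± 105 in 2 h and 7404 ± 236 in untreated cells (SD, n = 3 each). The readings after 2 h therefore lay above all others, and continuous and untreated cells overlapped. How often this order occurs among all tested probe sets was not counted. The differences were small: 0.14 ± 0.09 for 2 h against untreated (log2, 95% interval -0.06 to 0.33), -0.09 ± 0.09 for continuous against untreated (-0.29 to 0.11) and -0.23 ± 0.09 for continuous against 2 h (-0.42 to -0.03, limma adjusted p = 0.311). The 2 h and untreated arrays are paired by number. In each of the 3 pairs all 8 FKS1 probe sets, which read 1 transcript, were higher at 2 h. With the pairs as a block, none of these 8 was called (limma adjusted p 0.116 to 0.578). The SMI1 probe set was also higher in each pair, as were 6, 5 and 6 of the 8 FKS3 probe sets. For GSC2 it was 7, 6 and 3 of 7, and RHO1 was higher in pair 1 only. How many of all tested probe sets were higher in every pair was not counted. An index of how bright the secondary probe sets of 62 other genes read was also higher at 2 h in each pair, at -1.74 against -1.80, -2.08 against -2.37 and -2.03 against -2.31.

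The leading GSC2 probe set read 400.1, 366.7 and 495.7 in continuous wild-type cells, against 579.2, 480.6 and 257.5 at 2 h and 334.1, 339.6 and 290.9 in untreated cells. Its group means were 421 ± 67.0, 439 ± 165 and 322 ± 26.7 (SD, n = 3 each). All 3 continuous readings lay above all 3 untreated readings, while the 2 h readings spanned both. The share of all tested probe sets that separate in this way was not counted. The log2 differences were 0.38 ± 0.27 for continuous against untreated (95% interval -0.23 to 0.99, limma adjusted p = 0.616), 0.37 ± 0.27 for 2 h against untreated (-0.23 to 0.98, adjusted p = 0.917) and 0.01 ± 0.27 for continuous against 2 h. The upper bounds are well under the difference between fks1 and wild type.

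RHO1 read 2372.2, 2283.3 and 2532.9 in continuous wild-type cells, and its differences from untreated cells were -0.17 ± 0.13 for continuous and -0.03 ± 0.13 for 2 h (log2). SMI1 read 305.6, 349.3 and 299.3 in continuous cells, with differences of -0.06 ± 0.16 and 0.14 ± 0.16. The leading FKS3 probe set read 42.2, 72.5 and 95.4 in continuous cells, with differences of -0.02 ± 0.32 and 0.05 ± 0.32. The ranges of the 3 groups overlapped for each of these genes, except that all continuous RHO1 readings but 1 lay under all untreated readings. Among FKS3 probe sets 2707_s_at had the smallest p in continuous against 2 h (log2 -1.18 ± 0.28, unadjusted p = 0.0019, limma adjusted p = 0.186), with no reading above background in either group.

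The FKS1 probe sets did not vary equally between replicate arrays. In untreated wild type the highest reading was 1.06 times the lowest for 9966_at, 1.12 for 2841_s_at, 1.46 for 2840_s_at, 2.36 for 2839_s_at, 2.98 for 2838_s_at, 3.81 for 2837_s_at, 9.19 for 2836_g_at and 16.7 for 2835_at. Probe set 2836_g_at, for example, read 3656.8, 398.1 and 721.4 on untreated arrays that agreed closely in 9966_at. Where each probe set lies on the transcript is not given in the sources used here. At 2 h against untreated the log2 differences followed the same order, apart from the last 2, with 0.14 for 9966_at, 0.19 for 2841_s_at, 0.32 for 2840_s_at, 0.50 for 2839_s_at, 0.64 for 2838_s_at, 0.84 for 2837_s_at, 1.04 for 2836_g_at and 1.02 for 2835_at, with no call.

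**Figure D3:**
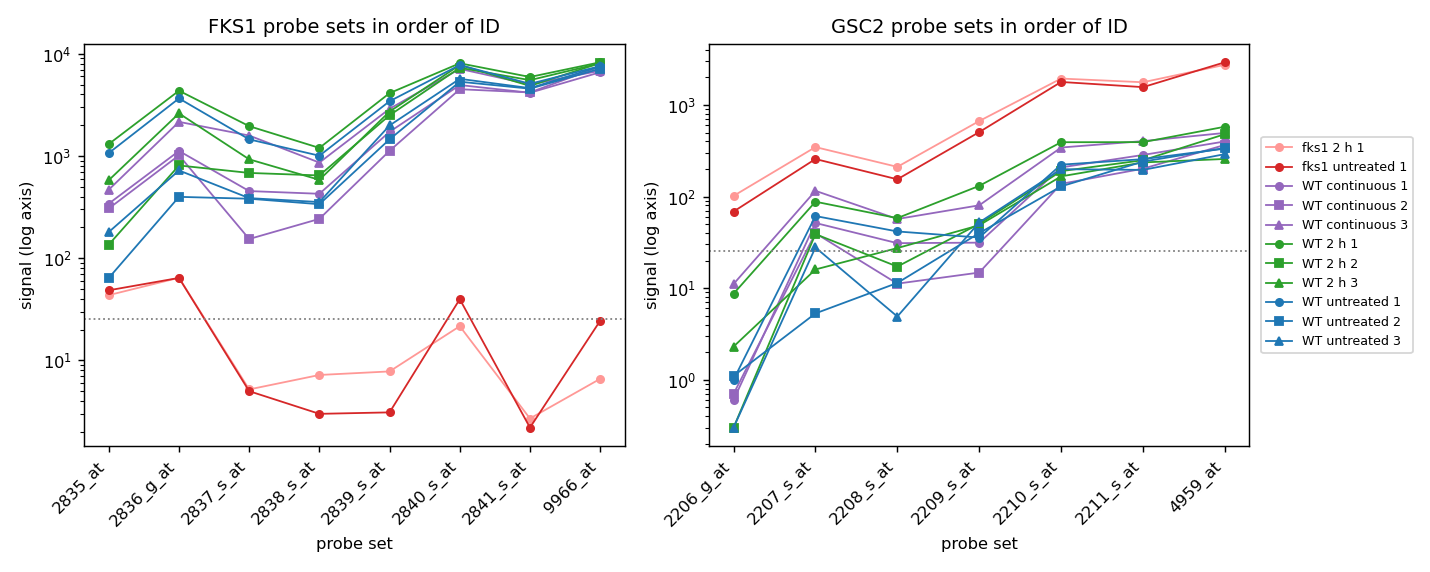
Signal (log axis) of the FKS1 and GSC2 probe sets in order of identifier, 1 line per array; the dotted line is the background percentile of 25.5. FKS1 lines of the 9 wild-type arrays lie together at 9966_at and spread at 2835_at from 64.1 to 1308.3, and both fks1 lines lie under the wild-type lines for FKS1 and over them for GSC2.

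The arrays also differed in the secondary probe sets of other genes. Over 62 genes that are not members and have at least 5 probe sets, an index was taken as the mean log2 signal of the other probe sets minus that of the leading one, so that a lower index means dimmer secondary probe sets. It averaged -2.01 ± 0.23 on continuous, -1.95 ± 0.18 on 2 h and -2.16 ± 0.31 on untreated wild-type arrays (SD, n = 3 each), and was -1.93 and -2.0 on the 2 h and untreated fks1 arrays. Untreated array 1 had -1.80, against -2.37 and -2.31 for arrays 2 and 3, and 52 of the 62 genes had a higher index on array 1 than on array 2. The FKS1 set 2836_g_at was highest on 2 h array 1 (4349.3, index -1.74) and untreated array 1 (3656.8, index -1.80) and lowest on untreated array 2 (398.1, index -2.37). With the index as a covariate, an alternative chosen after the data were seen, the FKS1 differences of 2 h against untreated ran from -0.15 to 0.14 on the log2 scale, and the untreated and 2 h GSC2 differences of fks1 at 4959_at were 3.08 and 2.71. What moves the index was not tested.

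**Figure D4:**
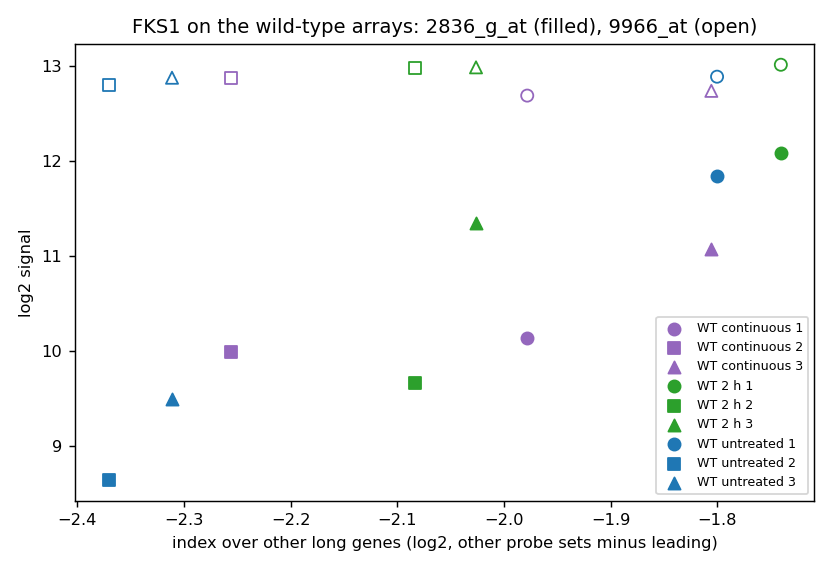
Log2 signal of FKS1 probe sets 2836_g_at (filled) and 9966_at (open) on the 9 wild-type arrays against the index over 62 other genes (log2, other probe sets minus leading). The filled points range widely and are lowest at the lowest index, and the open points stay level.

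The 2 h response to glucosamine in fks1, set against that in wild type, differed in 1 member probe set, with 0.0116% of all probe sets called. It was FKS1 9966_at (log2 -1.80 ± 0.20, limma adjusted p = 0.0334), for which both fks1 readings, 6.6 treated and 24.4 untreated, were under background, so the value compares background readings. The leading GSC2 probe set had a difference of responses of -0.47 ± 0.54 (95% interval -1.66 to 0.73). For RHO1 it was 0.16 ± 0.26 (-0.41 to 0.74), and for SMI1 -0.41 ± 0.31 (-1.11 to 0.29). With 1 fks1 array per condition these intervals are wide.

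Around the synthase, 6 lists of related genes were read at their leading probe sets: regulators of Rho1, cell wall sensors, the Rho1 effectors and cell integrity cascade, calcineurin, enzymes that remodel beta-1,3-glucan at the wall, and sporulation genes. They hold 49 genes, of which 46 were tested. In untreated fks1, 2 of the 46 were called higher and 0 lower, where 0.418% and 0.174% of all tested probe sets were. By the 2-fold rule 3 lay above and 1 below each wild-type array, where 2.76% and 0.859% of all did. The called genes were SLT2 and CRH1. SLT2, the MAP kinase of the cell integrity cascade, read 2032.3 in untreated fks1, against 285.9, 293.7 and 274.9 in untreated wild type (log2 2.84 ± 0.51, limma adjusted p = 0.0477). This call held in 7 of 18 alternative settings (adjusted p 0.0054 to 0.132) and was lost when any untreated wild-type array was left out. CRH1, a transglycosidase that links chitin to glucan, read 5679.9 against 2771.6, 2669.2 and 2286.3 (log2 1.15 ± 0.16, limma adjusted p = 0.0145), and its call held in 16 of 18. RLM1, the transcription factor under Slt2, read 713.4 against 261.0, 332.2 and 196.4 (adjusted p = 0.212), and GAS2, a glucan remodelling enzyme of the spore wall, read 40.9 against 131.8, 205.1 and 100.1 (adjusted p = 0.122). GAS2 was also lower in treated fks1, at 45.9 against 102.9, 160 and 89.4 in treated wild type. Why GAS2 read lower was not tested.

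All 9 tested Rho1 regulators were above 0 in untreated fks1, with a median log2 difference of 0.30, and 0 were called. The median of all tested probe sets was 0.12, and ROM1, RAM2 and CDC43 lay under it (0.05, 0.04 and 0.10). How many of all tested probe sets were above 0 was not counted. The median signal was also higher on the untreated fks1 array, at 150.4 against 126.8, 131.4 and 132.7 in untreated wild type. The untested regulator BAG7, a GTPase-activating protein for Rho1, read 85.9 in untreated fks1, against 2.3, 1.7 and 2.1 in untreated wild type, at least 3.37-fold higher. In treated fks1 it read 87.1, against 2.6, 2.8 and 1.9 in wild type at 2 h. Continuous wild-type cells read 43.4, 1.3 and 30.5 for BAG7, so it was above background on some wild-type arrays as well. The list of wall sensors held 5 genes, and WSC2, WSC3, MID2 and MTL1 had a probe set. These 4 tested sensors had a median of 0.73 (0.33 in treated fks1) and 1 of them lay below 0. The largest value was that of MTL1 (1.13 ± 0.65), which was dim at 31.4 to 74.3 in untreated wild type. The other medians were 0.11 for the 10 genes of the cascade, 0.40 for the 5 calcineurin genes, 0.12 for the 10 remodelling enzymes and 0.37 for the 8 sporulation genes. Among the sporulation genes SPR3, SMK1 and DIT1 read at most 14.9, 18.3 and 21.3 on any array, so their values compare background readings. Differences between lists were not tested. In treated fks1, 0 of the 46 were called and 2 lay past 2-fold above each treated wild-type array, a share near the 2.62% of all tested probe sets. SLT2 read 1800.5 there, against 585.4, 514.8 and 328.6 (log2 1.96 ± 0.51, adjusted p = 0.158), and NDT80, a transcription factor of meiosis, read 35.8, against 3.0, 3.9 and 13.3, none of them above background. Without glucosamine NDT80 also read 35.8 in fks1, within the 29.5, 31.2 and 39.9 of wild type. CRH1 read 5365.6 in treated fks1, against 3880.8, 3842.7 and 3595.2 in treated wild type, and was not called there (log2 0.51 ± 0.16, limma adjusted p = 0.228).

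**Figure D5:**
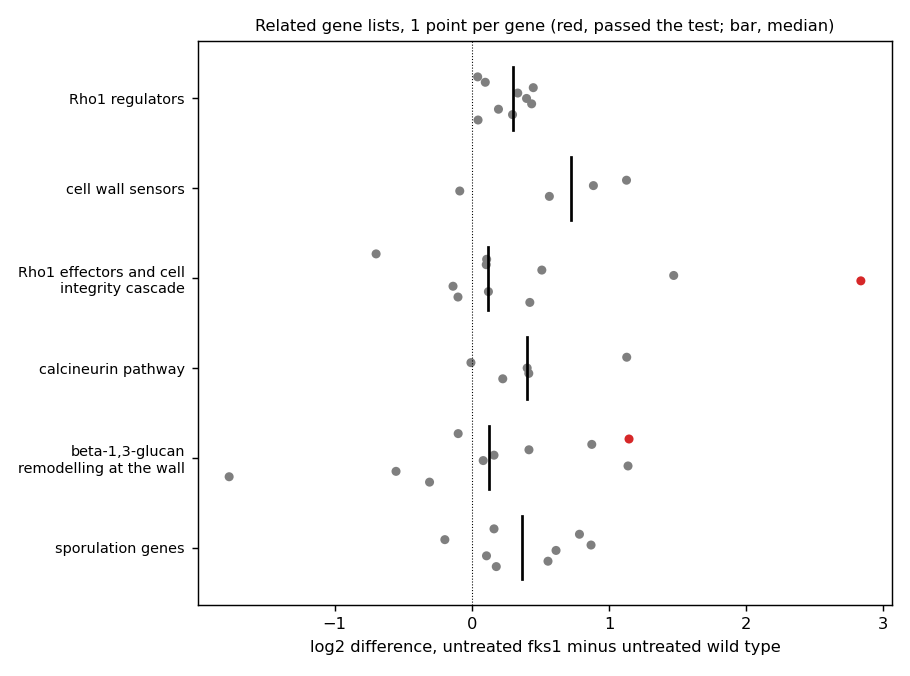
Log2 difference, untreated fks1 minus untreated wild type, for the tested genes of 6 related lists, 1 point per gene at its leading probe set, with the list median as a bar. The 2 called genes, in red, are SLT2 at 2.84 and CRH1 at 1.15.

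In wild type, 1 of the 46 listed genes was called in continuous cells against untreated cells, a share near the 1.44% of all tested probe sets. It was IME1, the master activator of meiosis, which read 269.3, 210.3 and 310.1 in continuous cells, against 93.9, 74.7 and 109.1 in untreated cells (log2 1.51 ± 0.21, limma adjusted p = 0.0265). The call held in 13 of 20 alternatives (adjusted p 0.0219 to 0.173) and was lost when any untreated array or continuous array 1 was left out, and under the replicate block. At 2 h against untreated and in continuous against 2 h cells, 0 of the 46 were called. RLM1 read 621.8, 327.2 and 787.7 in continuous cells, against 261.0, 332.2 and 196.4 in untreated cells (limma adjusted p = 0.136). The highest of these readings lay above the 713.4 of untreated fks1. SLT2 read 981.7, 423.1 and 1274.1 in continuous cells and 585.4, 514.8 and 328.6 at 2 h, against 285.9, 293.7 and 274.9 in untreated cells. All treated SLT2 readings lay above all untreated ones, and neither difference was called (limma adjusted p = 0.075 and 0.857), although the first was without continuous array 2 (adjusted p = 0.0308). The share of all tested probe sets with such an order was not counted.

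Over all 11 arrays, the 5 probe sets most like GSC2 at 4959_at among 5888 named probe sets above background were those of RBK1, KTR2, YNL115C, YPL088W and RTS3, with Pearson r of 0.980 to 0.966. RBK1 and YNL115C differed less than the other genes. RBK1 read 852.8 and 799.8 in treated and untreated fks1, against 386.9 to 535.2 in wild type. YNL115C read 256 and 251.3 in fks1, against 107.3 to 160.1 in wild type. KTR2 read 692.3 and 710.1 in treated and untreated fks1, against 103.3 to 209.9 in wild type. YPL088W read 1037.4 and 1130.7 in fks1, against 77 to 219.6 in wild type. RTS3 read 481.9 and 482.2 in fks1, against 96.1 to 178.8 in wild type. These correlations rest on the 2 fks1 arrays, on which all 5 lay above every wild-type array. Over the 9 wild-type arrays the closest to GSC2 were RIB5 (r = 0.932), BIG1 and AIM29, and the closest to FKS1 were ELO3 (r = 0.953), ORA1 and CPT1. Those closest to RHO1 were CDC1 (r = 0.986), ATP16 and ATP3, those to FKS3 SPC105 (r = 0.904), YHL048C-A and YLR326W, and those to SMI1 LAT1 (r = 0.908), TMA22 and FPS1. The points share arrays and scaling.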

How the data were processed

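Total RNA was labelled as biotin cRNA and hybridised to YG-S98 arrays, and the deposited values are signals that GeneChip Analysis Suite (version not given in the sources used here) produced and normalised, per the labels' protocols. Scaling to a common mean hides any change in total RNA per cell. Gene symbols came from the platform's gene table, updated through a RefSeq table of assembly R64, in which all 6504 probe sets with a single symbol matched; 328 had several genes and 2443 no name. Probe sets with several symbols were not members.

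Signals under 7.7, the 10th percentile, were set to it and log2 transformed. The 60 control probe sets were left out. Tests covered the 8616 probe sets that exceeded this floor on 3 or more wild-type arrays, among them 22 of the 25 members; 659 were untested. Comparisons within wild type used limma 3.58.1 (R 4.3.3) on the 9 wild-type arrays with a variance trend, two-sided, with Benjamini-Hochberg adjustment over all tested probe sets and a threshold of 0.05. Comparisons with fks1 used all 11 arrays, so the lone fks1 array was assumed to vary like the wild-type groups. Errors of log2 differences are limma's standard errors. The "at least" folds put 25.5 in place of the mean of a group that had no reading above background. Precision is limited by how many arrays there are, and p-values measure the spread between them.

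Same-numbered 2 h and untreated arrays deviated together (r = 0.356, 0.570 and 0.517), which pairs them; same-numbered arrays did not for continuous against untreated (-0.006, -0.143 and -0.236) or continuous against 2 h (-0.058, -0.036 and -0.204). The members and lists were chosen with earlier results of these data known. Named genes were all member probe sets, listed genes that passed a test or the 2-fold rule, and the nearest probe sets by correlation. No sequence or coordinate is given because the sources used here hold none for these probe sets.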

Additional observations from a re-analysis of the deposited data

Results flagged for a closer look

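The difference between the 2 h responses of fks1 and wild type at FKS1 9966_at was -1.80 on the log2 scale, the only difference of responses that passed the test. It rests on fks1 readings of 6.6 (treated) and 24.4 (untreated), both under the background percentile of 25.5. Probe set 2205_at, which the platform's table assigns to GSC2 and IMO32 together and which is no member for that reason, read 266.8 in treated fks1, against 139.1, 80.5 and 90.9 in treated wild type. It read 194.4 in untreated fks1, against 113.9, 94.2 and 100.8 in untreated wild type. Both fks1 readings lay above every wild-type reading, of which the highest was 153.9. Groups of 3 arrays or 1 array are too small for a check of single outlying samples.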

How the results depend on the processing

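Of 2400 values of the 132 member differences under alternative settings, 0 called differences changed sign, and 52 lost and 17 gained a call. Another 99 uncalled ones changed sign or went to 0 within rounding. The number of members called in untreated fks1 was 9 and became 2 without probe sets that can cross-hybridise, since fewer members were then tested, and 14 by the 2-fold rule. In treated fks1 it was 8 and became 2 and 14 under the same settings. Leaving out 1 wild-type array gave 6 to 10 and 6 to 9 members, and 0 members for the difference of responses. That difference was called for 1 member, for 2 without a filter on low signals, and for 0 with log2 of signal + 50, median scaling, quantile normalisation, no variance trend or the index covariate. The untreated GSC2 call at 2211_s_at was lost without untreated array 3 (adjusted p = 0.0532). At 2210_s_at it was called in 9 of 17 alternatives untreated and 5 of 17 at 2 h, at 2211_s_at in 12 of 17 at 2 h, and at FKS1 2837_s_at in 6 and 7 of 17; the cause was not tested.

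With the replicate block, 0 members were called in each wild-type comparison, as without it, while the counts over all probe sets were 17 (2 h, from 3), 0 (continuous, from 124) and 0 (continuous against 2 h, from 5). Counts over all probe sets ran from 0 to 17 at 2 h, 0 to 182 in continuous and 0 to 9 between them. They ran from 20 to 312 in untreated fks1 (51 as fitted), 18 to 330 in treated fks1 (37) and 0 to 99 for the difference of responses.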
